A study of Mus musculus with 9 samples.

Results

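The voltage-gated sodium channel, voltage-gated calcium channel and HCN channel genes form the set described here. Members are the protein-coding entries whose symbols begin with Scn and end in a or b, those named Cacna1, Cacna2d1 to Cacna2d4, Cacnb1 to Cacnb4, and the Hcn genes. This gave 36 of the 32695 entries of the count table that are not spike-ins: 10 sodium channel alpha subunits, 4 sodium channel beta subunits, 10 calcium channel alpha-1 subunits, 4 alpha-2/delta subunits, 4 calcium channel beta subunits and 4 HCN channels. All 36 symbols were found. The rule itself uses names and no expression value.

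The cells came from ventral midbrain. The mice carried VGAT-Cre, Ai14 and Pitx3-GFP. Cells were sorted singly into wells of plates and sequenced with CEL-seq2, which counts mRNA molecules by a barcode. In these mice Cre is driven by the gene of the vesicular GABA transporter, so tdTomato marks any cell that has expressed it up to the time of collection, and GFP marks cells that express Pitx3, a transcription factor of midbrain dopamine neurons. All groups carry the 3 alleles and none was treated. Cells with tdTomato filled 4 plates at E16 and 3 plates at P0 (VGAT plates). Cells with tdTomato and GFP filled 1 plate at E16 and 1 at P0 (VGAT+PITX3 plates). The sources used here do not tie plates to animals, so p-values measure the spread between plates, which may be technical.

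Voltage-gated sodium channels carry the rising phase of the action potential. Their alpha subunits form the pore and their beta subunits adjust gating and placement in the membrane. Voltage-gated calcium channels couple depolarization to transmitter release, pacemaking and gene expression. Here the alpha-1 subunit is the pore, the beta subunit is cytosolic, and the alpha-2/delta subunit is extracellular, aids trafficking to the surface and, for Cacna2d1 and Cacna2d2, binds gabapentin. HCN channels open on hyperpolarization, are modulated by cyclic nucleotides and carry the Ih current, which is well known in midbrain dopamine neurons.

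The cell names carry a second plate label. It gives the other stage for 4 of the 7 VGAT plates (E16 replicates 3 and 4, P0 replicates 1 and 3), and for 4 of the 9 plates, both VGAT+PITX3 plates among them, a different sort. The first label, which matches the sample titles, was used. Summed levels of 8 dopamine neuron markers were 4722 and 6068 CPM (counts scaled to a total of 1e+06 per plate) on the VGAT+PITX3 plates and between 113 and 170 CPM on the VGAT plates, so the sort followed the first label. No such check was available for the stage, and results on stage are given with both readings. Of 3455 wells, 2035 were kept, 1460 on VGAT plates and 575 on VGAT+PITX3 plates. Total counts per plate lay between 1435919 and 5408710, so that 3 counts correspond to 0.555 to 2.09 CPM. Only 44 cells of VGAT P0 replicate 1 were kept.

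Marker levels described the sorted cells. The 4 GABA markers summed to between 2059 and 2544 CPM on VGAT plates and to 1243 and 1461 CPM on VGAT+PITX3 plates. The 3 glutamate markers summed to between 1.90 and 23.9 CPM on VGAT plates and to 108 and 210 CPM on VGAT+PITX3 plates. Neuron markers summed to between 2592 and 3352 CPM on all plates. Astrocyte markers reached 111 CPM on VGAT P0 replicate 2 and were 25.3 and 56.5 CPM on the VGAT+PITX3 plates, against at most 4.12 CPM on the other plates. The part of these cells in the results below was not tested. In sums of cells, fewer cells with a transcript and fewer transcripts per cell cannot be told apart, and shares of cells are therefore given beside the levels.

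The main contrast asked how cells with both reporters differ from cells with tdTomato alone. In VGAT+PITX3 cells 2 alpha-2/delta genes were higher, Cacna2d1 and Cacna2d3. They were among the 3 members past the threshold of 31 tested on summed plates (edgeR's quasi-likelihood test with stage in the model, Benjamini-Hochberg adjusted p under 0.05 over all genes). Over all 14624 genes tested, 8.93% were called, 4.73% as higher and 4.20% as lower, so the members' 3 of 31 is near that background. The median log2 fold change was 0.05 over the members tested and -0.00 over all genes tested.

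Cacna2d1 encodes alpha-2/delta-1, the high-affinity receptor of gabapentin and pregabalin, and lies on chromosome 5 (GRCm38, 15934691 to 16374511, plus strand). Its level was 26.9, 18.1, 3.04 and 15.7 CPM on the VGAT E16 plates, replicates 1 to 4, and 5.38, 34.4 and 2.63 CPM on the VGAT P0 plates, replicates 1 to 3. It was 154 CPM on the VGAT+PITX3 E16 plate and 218 CPM on the VGAT+PITX3 P0 plate. The groups did not overlap, and the lower VGAT+PITX3 plate stood above every VGAT plate. The log2 fold change was 3.64 with a standard error of 0.50 (adjusted p = 0.000154, edgeR). On the VGAT plates much of the signal came from single cells: 1 cell held 60 of the 79 counts of E16 replicate 4, 49 of 97 in E16 replicate 2, 43 of 109 in E16 replicate 1 and 27 of 62 in P0 replicate 2. On the VGAT+PITX3 plates no cell held more than 17 of the 681 and 485 counts.

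Cacna2d3 encodes alpha-2/delta-3, a subunit known for its roles in synapse formation and in nociception, and lies on chromosome 14 (GRCm38, 28904943 to 29721864, minus strand). Its level was 349, 365, 259 and 269 CPM on the VGAT E16 plates and 377, 169 and 225 CPM on the VGAT P0 plates. It was 1049 CPM on the VGAT+PITX3 E16 plate and 1109 CPM on the VGAT+PITX3 P0 plate. Here too the groups did not overlap. The log2 fold change was 1.94 with a standard error of 0.21 (adjusted p = 1.643e-05, edgeR). Counts over introns made up 76.4% of the Cacna2d3 counts, and 6 antisense genes and 1 further gene of the same strand overlap it in the GENCODE M21 annotation. Whether counting used the strand is not given, so their reads cannot be told apart from its own. In spliced counts, which leave out the introns, Cacna2d3 was between 64.1 and 118 CPM on VGAT plates and was 345 and 366 CPM on the VGAT+PITX3 plates, and it was called there too.

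**Figure D1:**
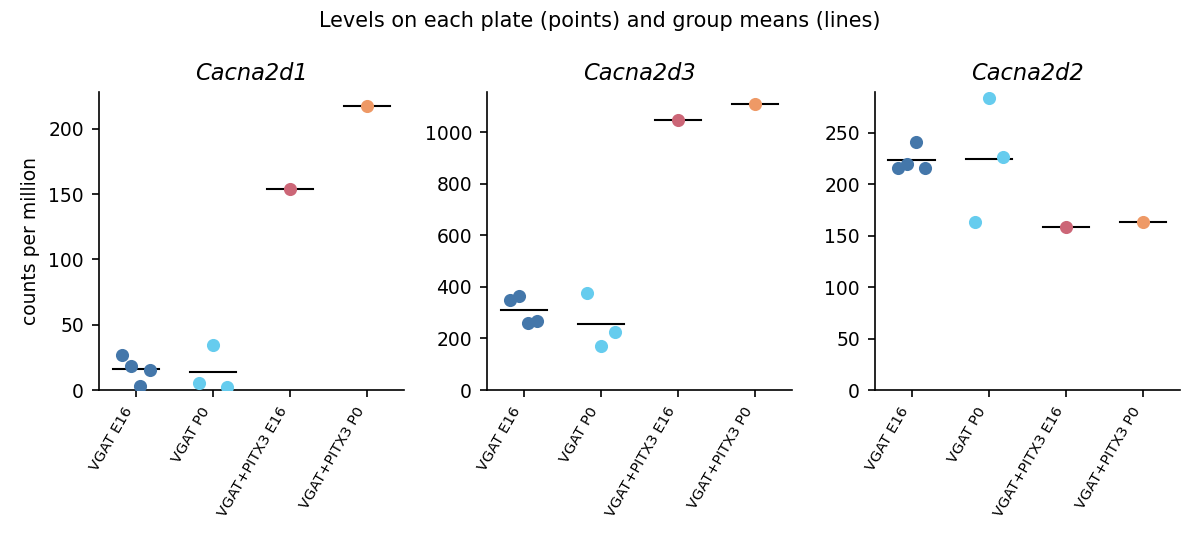
Levels of Cacna2d1, Cacna2d3 and Cacna2d2, in CPM on a linear axis from 0. Each point is 1 plate, coloured by group, and each line is a group mean. Cacna2d1 and Cacna2d3 are higher on both VGAT+PITX3 plates than on all 7 VGAT plates, and Cacna2d2 is 158 and 163 CPM there.

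Hcn2, Hcn3 and Hcn4, of which Hcn4 is the main subunit of the cardiac pacemaker, had log2 fold changes of 0.35, -0.09 and 0.29 between the sorts and did not pass the test (adjusted p = 0.391, 0.876 and 0.459, edgeR).

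The windows upstream of the 2 genes that were higher together are shown because they let a reader see what surrounds their start sites. They are the 250 bases before the RefSeq start (GRCm38.p6, 5′ to 3′ on the gene's strand), chr5:15934441-15934690 for Cacna2d1 on the plus strand and chr14:29721865-29722114 for Cacna2d3 on the minus strand. Capitals mark the GC box GGGCGG on either strand.
Cacna2d1: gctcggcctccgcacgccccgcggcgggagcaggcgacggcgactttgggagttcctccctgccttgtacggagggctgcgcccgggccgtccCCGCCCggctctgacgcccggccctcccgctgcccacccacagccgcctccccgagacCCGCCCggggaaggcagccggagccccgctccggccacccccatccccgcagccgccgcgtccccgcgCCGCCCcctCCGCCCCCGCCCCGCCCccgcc
Cacna2d3: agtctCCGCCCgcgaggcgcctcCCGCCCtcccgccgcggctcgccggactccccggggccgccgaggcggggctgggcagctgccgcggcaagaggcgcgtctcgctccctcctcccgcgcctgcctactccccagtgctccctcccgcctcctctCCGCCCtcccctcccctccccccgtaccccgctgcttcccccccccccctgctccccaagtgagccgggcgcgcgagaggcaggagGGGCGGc
The GC content was 82.4% for Cacna2d1 and 80.0% for Cacna2d3, against a median of 52.4% over 32851 windows. The GC box occurred 6 times in the Cacna2d1 window and 4 times in the Cacna2d3 window, and 32.7% of all windows hold at least 1. At least 6 were in 0.886% of all windows and at least 4 in 4.09%. Windows of like GC content were not compared, so these counts cannot be told apart from base content. The letters of the NBRE AAAGGTCA, bound by the Nr4a2 family, of the bicoid-type site TAATCC, bound by Pitx factors, and of the TATA box TATAAA were in neither window on either strand. They occurred in 1.34%, 6.25% and 12.4% of all windows. Windows of 26 of the 36 members were found in the table.

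Cells of each plate were also compared one by one after thinning to 4000 counts, because deeper cells show more genes, which left out 79 of 2035 cells. Cacna2d1 was found in 37.1% of cells on the VGAT+PITX3 E16 plate (95% Clopper-Pearson interval 31.6% to 42.9%, counting error only) and in 41.4% on the P0 plate (35.2% to 47.8%). Its share on the 7 VGAT plates ranged from 0.592% to 5.70%, with a median of 2.33%. Cacna2d3 was found in 92.6% and 94.4% of cells on the VGAT+PITX3 plates and in 30.4% to 53.5% on the VGAT plates. Thus for both genes the shares of cells, like the levels, did not overlap between the sorts. Without thinning the mean shares were 57.3% against 8.02% for Cacna2d1 and 96.6% against 61.9% for Cacna2d3. Cacna2d1 and Cacna2d3 were found in the same cell in 34.8% and 39.0% of cells on the VGAT+PITX3 plates and in at most 4.39% on any VGAT plate. As most VGAT+PITX3 cells held Cacna2d3, these joint shares lay near the single shares of Cacna2d1. They do not show a link between the 2 genes within cells, which was not tested. Cells without any of Cacna2d1, Cacna2d2 and Cacna2d3 made up 2.68% and 2.41% on the VGAT+PITX3 plates and 21.9% to 35.0% on the VGAT plates.

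Within the VGAT+PITX3 plates, cells were split by a count of the dopamine transporter gene Slc6a3, a split chosen after seeing the data. At E16, 187 cells had Slc6a3 and 117 did not. At P0, 137 had it and 134 did not. The Cacna2d1 level was 150 CPM with and 143 CPM without Slc6a3 at E16, and 207.5 and 207.9 CPM at P0. The Cacna2d3 level was 946 and 1135 CPM at E16, and 976 and 1157 CPM at P0. Cells without a count of Slc6a3 thus had levels of both genes above those of every VGAT plate. These CPM were taken on plain totals, without the TMM factors used elsewhere. Cells without a count were shallower, with medians of 12630 against 15680 counts at E16 and 7019 against 8201 at P0.

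The make-up of the alpha-2/delta family is given as shares of its summed CPM, which are not per length and are compared only between plates. The family summed to between 455 and 604 CPM on VGAT plates and to 1362 and 1490 CPM on VGAT+PITX3 plates. Cacna2d2, the alpha-2/delta subunit whose loss gives the ducky mouse, made up 43.1% ± 9.6 (SD, n = 7) of the family on VGAT plates, against 11.6% and 10.9% on VGAT+PITX3 plates. In spliced counts Cacna2d2 was between 63.0% and 79.1% of the family on VGAT plates and 27.6% and 26.9% on VGAT+PITX3 plates. Cacna2d1 made up 11.3% and 14.6% on VGAT+PITX3 plates and at most 7.06% on VGAT plates. The level of Cacna2d2 itself was between 163 and 283 CPM on VGAT plates and was 158 and 163 CPM on VGAT+PITX3 plates. Its log2 fold change of -0.48 with a standard error of 0.17 did not pass the test (adjusted p = 0.102, edgeR), and passed it in DESeq2 (adjusted p = 0.0468). Cacna2d4, a subunit best known from the retina, had 20 counts over the 9 plates and at most 5 on any plate.

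**Figure D2:**
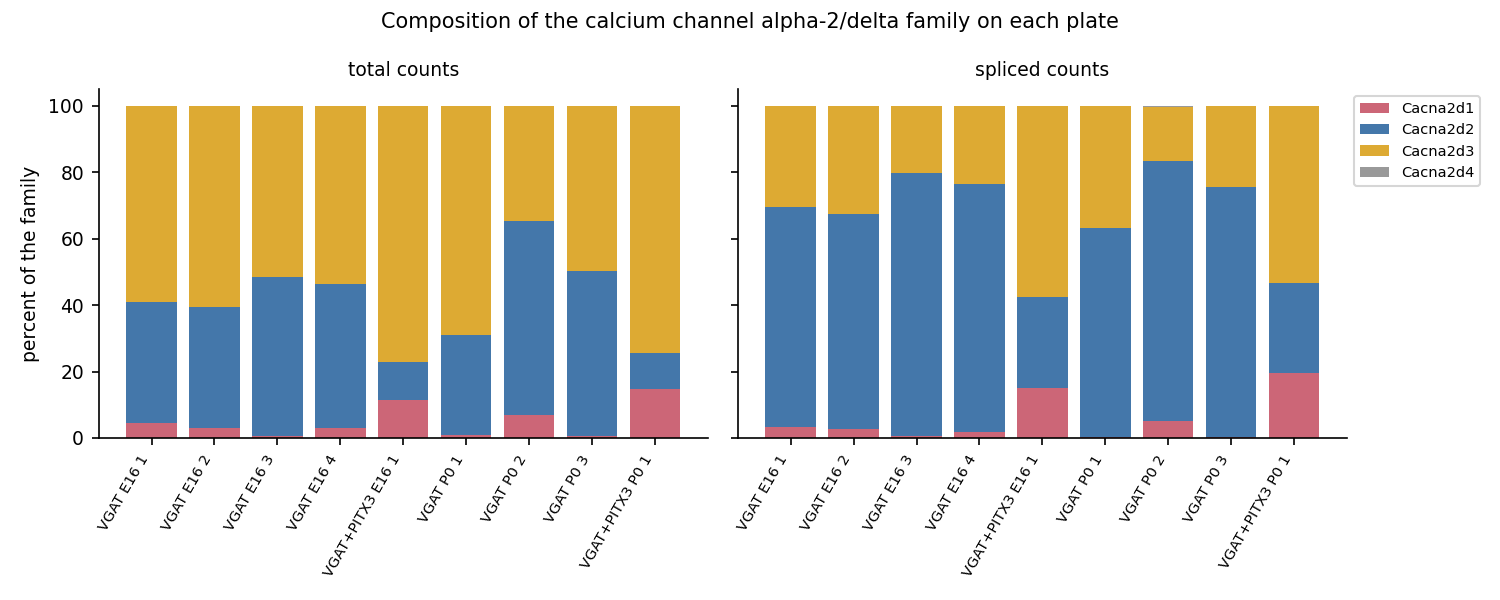
Share of each alpha-2/delta gene in the summed level of the family, in percent, on each of the 9 plates, for total counts (left) and spliced counts (right). Cacna2d2 takes 29.9% to 58.1% of total counts on VGAT plates and 11.6% and 10.9% on the VGAT+PITX3 plates.

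None of the sodium channel genes passed the test between the sorts. Among the alpha subunits, 9 of 10 were tested. Scn3a, an alpha subunit abundant in embryonic neurons, was between 399 and 556 CPM on VGAT plates and 577 and 627 CPM on VGAT+PITX3 plates (log2 fold change 0.36 with a standard error of 0.13, adjusted p = 0.110, edgeR). Scn1a, Scn2a, Scn8a and Scn9a, which carry most neuronal sodium current in various parts of the cell and body, had log2 fold changes of -0.01, 0.11, 0.29 and 0.13. Of the beta subunits, Scn3b was between 173 and 245 CPM on VGAT plates and 264 and 252 CPM on VGAT+PITX3 plates, without overlap, at a log2 fold change of 0.40 with a standard error of 0.13 (adjusted p = 0.0766, edgeR). In spliced counts Scn3a, Scn3b and Cacna1e passed, with adjusted p values of 0.0475, 0.0467 and 0.0492 (edgeR), and each was higher in VGAT+PITX3 cells.

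The pore-forming calcium channel genes were alike in outcome, with 8 of 10 tested and none called. Their log2 fold changes ran from -0.46 for Cacna1i, a T-type channel, to 0.44 for Cacna1e, the R-type channel. Cacna1a and Cacna1b, the P/Q- and N-type channels of nerve terminals, had log2 fold changes of 0.37 and 0.24. Cacna1c and Cacna1d, the neuronal L-type channels, had 0.16 and 0.01, and Cacna1d encodes the channel linked to pacemaking of nigral dopamine neurons. Its level was between 95.8 and 164 CPM on VGAT plates and 121 and 148 CPM on VGAT+PITX3 plates, within the VGAT range. The 4 cytosolic beta subunit genes had log2 fold changes from -0.29 for Cacnb4 to 0.05 for Cacnb1, and none was called.

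**Figure D3:**
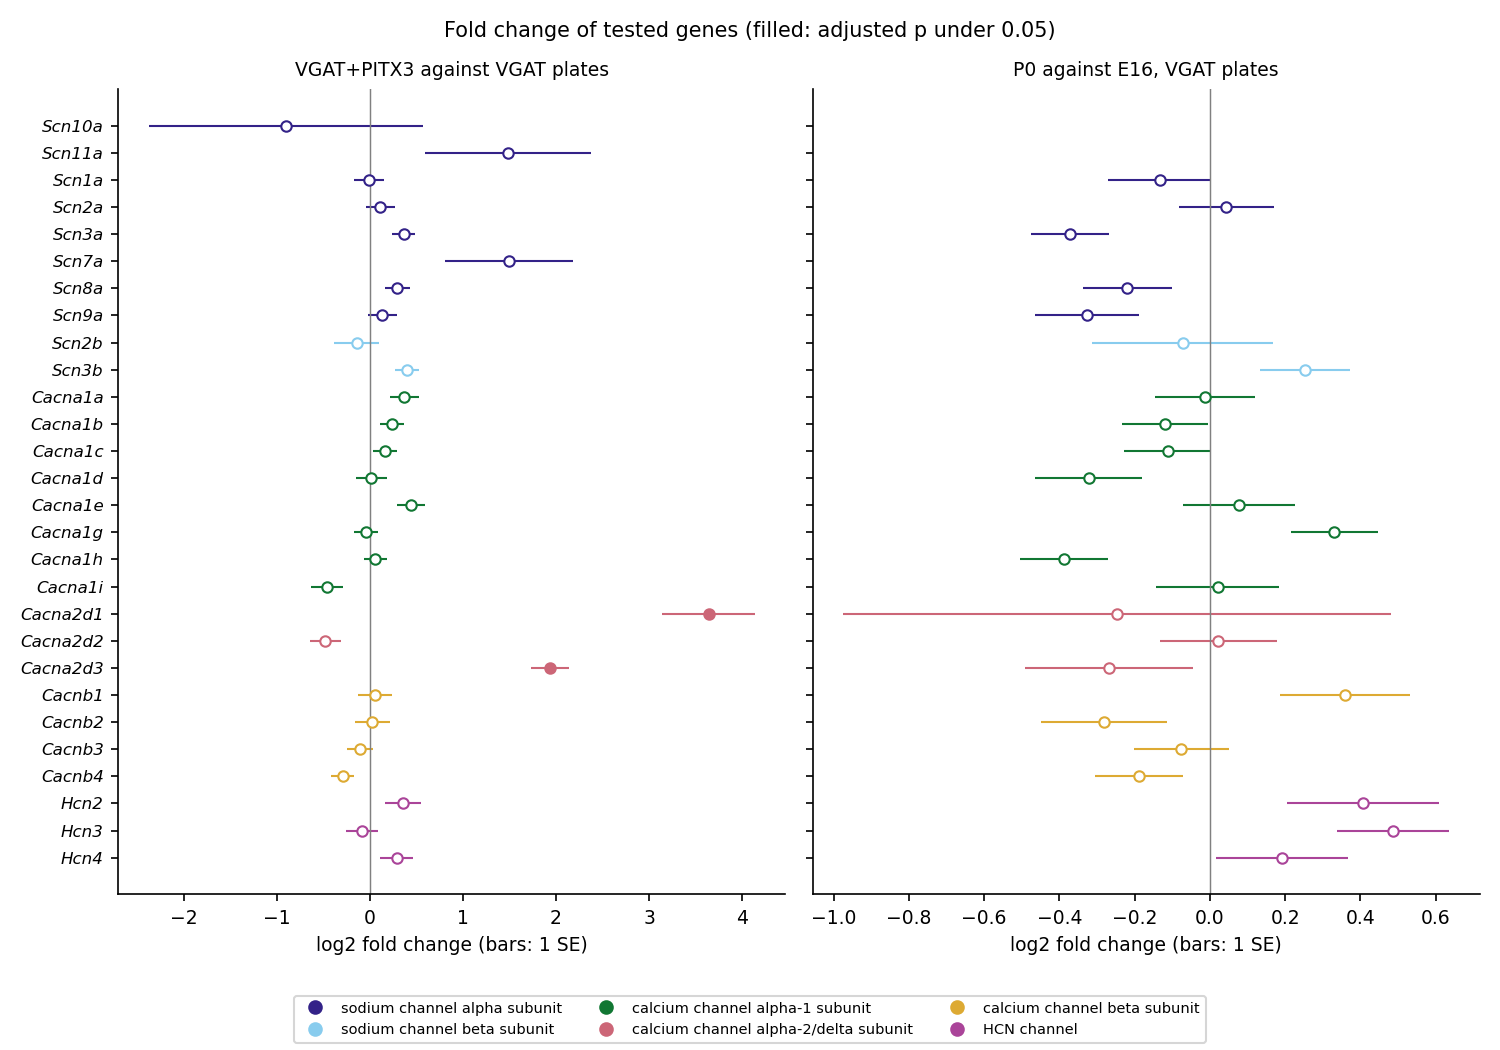
Log2 fold change of tested members with 1 standard error, between the sorts (left) and between the stages on VGAT plates (right), coloured by family. Filled points passed the test. These are Cacna2d1 and Cacna2d3, at 3.64 and 1.94 between the sorts.

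On the VGAT plates the comparison of stages asked what changed between E16 and P0. By the first label 1 of 28 members tested was called. Over all 13639 genes 4.58% were called, 2.84% higher and 1.74% lower at P0, so 1 of 28 is near the background. The median log2 fold change was -0.04 over the members and 0.02 over all genes.

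With the stage taken from the second label and the sort from the first, 1 gene in all was called and no member was. Scn10a, a sodium channel gene known from nociceptors, had 10, 1 and 15 counts on P0 replicates 1, 2 and 3 and 1 count on the 4 E16 plates together, and was outside the filter on low counts. Single cells held 6 of the 10 counts and 5 of the 15. It passed by stage without the filter (adjusted p = 8.17e-07, edgeR) and without P0 replicate 2 (adjusted p = 0.0101, edgeR). The plates with 10 and 15 counts are E16 plates by the second label, so the order of the stages turns under that reading.

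Several members lay close to the threshold for stage by the first label. Scn3a was 520, 520, 556 and 546 CPM at E16 and 424, 408 and 399 CPM at P0, without overlap, with a log2 fold change of -0.37 and a standard error of 0.10 (adjusted p = 0.0593, edgeR). Cacna1h, a T-type channel gene, was between 109 and 121 CPM at E16 and between 78.8 and 98.3 CPM at P0, also without overlap (log2 fold change -0.39, adjusted p = 0.0744, edgeR). Hcn3 had a log2 fold change of 0.49 (adjusted p = 0.0769, edgeR). Scn3a passed in DESeq2 (adjusted p = 0.00532). Hcn2 and Hcn4 had log2 fold changes of 0.41 and 0.19 and did not pass. With the stage from the second label these directions turned, to 0.11 for Scn3a, 0.12 for Cacna1h, -0.02 for Hcn3, -0.05 for Hcn2 and -0.15 for Hcn4, with adjusted p values of 0.946, 0.948, 0.997, 0.985 and 0.935 (edgeR), and the levels of Scn3a and Cacna1h overlapped between the stages. On the 3 VGAT plates with 1 stage in both labels, E16 replicates 1 and 2 and P0 replicate 2, a set chosen after seeing the data, Cacna2d3 had a log2 fold change of -1.08 with a standard error of 0.16 (adjusted p = 0.00597, edgeR). The P0 side of this fit is 1 plate with no replicate, assumed to vary like the E16 plates, and it is the plate with 111 CPM of astrocyte markers, whose part in this value was not tested. On all 7 plates that of Cacna2d3 was -0.27 with a standard error of 0.22 (adjusted p = 0.496, edgeR), and -0.50 with a standard error of 0.21 by the second label (adjusted p = 0.782, edgeR).

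Whether the stages differed in the contrast of sorts was tested as an interaction over the 9 plates. Of 15724 genes 0 were called (0%), with 998 at an unadjusted p under 0.05 in edgeR and 3 called in DESeq2, and of the 31 members tested 0 were called in edgeR or in DESeq2 and 3 were under that unadjusted p in edgeR. The smallest adjusted p of a member was 0.773. The median interaction was 0.36 on the log2 scale over the members, 23 of 31 positive. It was 0.26 over the partner genes described below, 29 of 38 positive, against -0.01 over all genes, 7757 of 15724 positive. All these values come from the same plates, so the genes are not separate evidence. The stage here is that of the first label, and the medians were not taken with the second. There is 1 VGAT+PITX3 plate per stage, so the interaction rests on 2 plates.

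Within the VGAT plates, cells with a count of Six3 and none of Pax5 were set against cells with Pax5 and none of Six3. These transcription factors mark separate groups of GABAergic neurons of the substantia nigra pars reticulata. There were 637 Six3 cells and 197 Pax5 cells, with 19 to 131 and 5 to 69 cells per plate. Counts were summed per plate and class and tested with the plate as a block. Of 25 members tested 2 were called: Cacna2d3 was higher and Cacna2d2 was lower in Six3 cells. Over all 9973 genes 2.85% were called, 1.37% higher and 1.47% lower. The median log2 fold change was 0.00 over the members and 0.01 over all genes.

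Cacna2d3 had 397, 486, 369 and 374 CPM in Six3 cells of the E16 plates, against 150, 128, 55.3 and 136 CPM in Pax5 cells of the same plates. On the P0 plates it had 625.1, 178 and 242 CPM in Six3 cells, against 44.6, 81.5 and 80.4 CPM for Pax5. The Six3 sum exceeded the Pax5 sum on 7 of 7 plates, and the lowest Six3 value lay above the highest Pax5 value. The log2 fold change was 2.02 with a standard error of 0.21 (adjusted p = 1.929e-05, edgeR). Pax5 cells gave few counts, from 8 to 132 per plate.

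Cacna2d2 went the other way. It had 219, 200, 207 and 219 CPM in Six3 cells of the E16 plates against 357, 329, 308 and 318 CPM in Pax5 cells. On the P0 plates it had 131, 266 and 241 CPM in Six3 cells against 279, 353 and 418 CPM in Pax5 cells. It was lower in Six3 cells on 7 of 7 plates, again without overlap, at a log2 fold change of -0.67 with a standard error of 0.10 (adjusted p = 0.000863, edgeR). Cacna2d1 was outside the filter on low counts in this comparison. Cacna1a was lower in Six3 cells on 7 of 7 plates (log2 fold change -0.28) without passing the test (adjusted p = 0.187, edgeR).

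**Figure D4:**
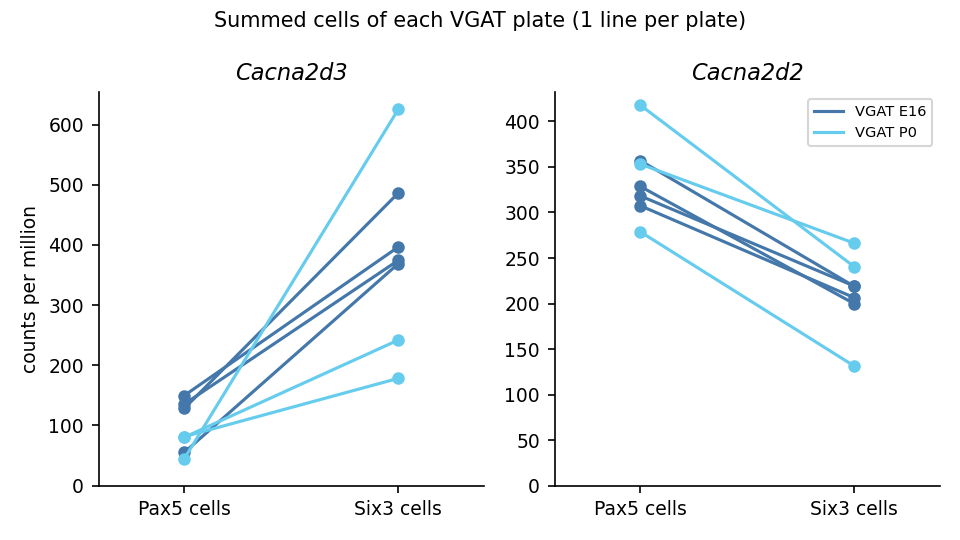
CPM of Cacna2d3 and Cacna2d2 in the summed Pax5 cells and Six3 cells of each VGAT plate, 1 line per plate, coloured by stage. All 7 lines rise for Cacna2d3 and all 7 fall for Cacna2d2.

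Genes that work with these channels were taken from a list of 43 anchoring, scaffolding and accessory genes. Between the sorts 11 of 36 tested were called, 7 of them up and 4 of them down in VGAT+PITX3 cells, beside 8.93%, 4.73% and 4.20% of all genes. The median log2 fold change of the list was -0.04, against -0.00 over all genes. Fgf13, an intracellular partner of sodium channels, was between 166 and 333 CPM on VGAT plates and 660 and 509 CPM on VGAT+PITX3 plates, at a log2 fold change of 1.29 with a standard error of 0.16 (adjusted p = 5.235e-05, edgeR). Fgf11, of the same family, went down with a log2 fold change of -1.32. Cacng3, a protein that accompanies AMPA receptors and is related to a calcium channel subunit, was higher by 1.18 on the log2 scale. Rims1, a scaffold of the release site that binds calcium channels, was higher by 0.72, and Cntn1, an axonal adhesion molecule that binds sodium channels, by 0.70. Nedd4l, a ubiquitin ligase of ion channels, was higher by 0.62. Fam155a and Unc79, parts of the sodium leak channel complex, were higher by 0.57 and 0.50. The other parts listed were not called. Nalcn stood at -0.50, Unc80 at 0.26 and Tmem28 at -0.20 (adjusted p = 0.162, 0.343 and 0.717, edgeR). Nalcn was 74.6 CPM on the VGAT+PITX3 E16 plate, 140 CPM on the P0 plate and between 126 and 172 CPM on VGAT plates. Nalcn was called in spliced counts and without a filter on low counts. Cabp1, a calcium-binding regulator of calcium channels, had a log2 fold change of -1.81 and was between 26.9 and 52.2 CPM on VGAT plates and 9.045 and 13.9 CPM on VGAT+PITX3 plates. Stac, an adaptor that binds calcium channels, had -1.35, and Akap5, a kinase anchor at the membrane, had -0.53. The calls of Akap5 and Unc79 lay at adjusted p values of 0.0498 and 0.0481 (edgeR) and were lost in many of the alternatives. Other calls were lost when a VGAT+PITX3 plate was left out. Without the P0 plate Rims1 was at 0.47, Cntn1 at 0.39, Fam155a at 0.34 and Nedd4l at 0.49 on the log2 scale, with adjusted p values of 0.296, 0.399, 0.503 and 0.232 (edgeR). Without the E16 plate Stac was at -1.11, Fgf11 at -1.20 and Nedd4l at 0.73, with adjusted p values of 0.162, 0.191 and 0.0677 (edgeR). With the replicate number as a block, Rims1, Nedd4l and Fam155a lost their calls (adjusted p = 0.0831, 0.0705 and 0.276, edgeR), as did Akap5 and Unc79, and in spliced counts Cntn1 did (log2 fold change 0.47, adjusted p = 0.313, edgeR). Fgf13, Cacng3 and Cabp1 passed when either plate was left out in turn. Between the stages 1 of 35 was called, beside 4.58% of all genes. It was Cacng5, higher at P0 by 1.75 on the log2 scale by the first label (adjusted p = 0.0325, edgeR) and at -0.37 with the stage from the second label (adjusted p = 0.966, edgeR). Its call was lost without E16 replicate 1, 3 or 4 and without P0 replicate 2 or 3, with adjusted p values up to 0.157 (edgeR). Between Six3 and Pax5 cells 0 of 31 were called, beside 2.85% of all genes, with 2 at an unadjusted p under 0.05 in edgeR and 0 called in DESeq2.

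Members differed in how far their counts came from introns. Over the 23 members with at least 1000 counts the intronic share ran from 0.918% for Cacnb3 to 86.6% for Cacnb2, with a median of 45.5%, against 26.0% over all genes. Cacna1c and Cacna2d3 had 85.75% and 76.4%, while Cacnb1, Cacna1h, Hcn3 and Hcn4 had 1.07%, 1.397%, 1.24% and 1.54%. The share of Cacna2d3 was 77.4% on VGAT plates and 75.2% on VGAT+PITX3 plates.

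The members that were outside the filter in every comparison were Scn4a, the skeletal muscle sodium channel, with 4 counts over the 9 plates, Scn4b with 3, Cacna1f, the retinal L-type channel, with 19, Cacna1s, the skeletal muscle L-type channel, with 8, and Cacna2d4 with 20. Scn10a, Scn11a and Scn7a had 30, 32 and 57 counts and, with no plate left out, passed the filter only over the 9 plates.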

How the data were processed

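The authors aligned reads to GRCm38 (mm10) with STAR and counted distinct molecular barcodes per gene and well over exons, introns and both. The deposited values are expected counts, corrected by the authors for barcode collisions and not scaled to depth. They were rounded after summing. A well entered if it had 2000 or more genes, no more than 50000 counts and a mitochondrial share under 15%. Spike-ins (ERCC) and mitochondrial entries were removed. Plate sums were analysed in edgeR 4.0.16 (R 4.3.3): low counts removed by filterByExpr, TMM factors, the quasi-likelihood test, and adjustment by Benjamini-Hochberg at 0.05. The models were stage over the 7 VGAT plates, stage and population over 9 plates, their interaction, and the class of cell (Six3 or Pax5) blocked by plate, leaving out both marker genes. Standard errors follow from the F statistic. DESeq2 1.42.0 was an alternative. CPM used TMM factors and were not divided by gene length, so levels of different genes are not compared. Fits were tested on simulated data. Python 3.11.15 was used for tables. Members past the threshold have all values, except that results of some members are not reported here, whereas other members named have at least 1000 counts or are named with the reason. The members and lists were chosen with earlier results of these data known. Alternatives were other filters, normalizations, count tables, left-out plates, the replicate block and the second plate label. Doublets were treated only by leaving out cells over 2 times the plate median in an alternative. Strandedness of counting is not given in the sources used here.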

Additional observations from a re-analysis of the deposited data

Results flagged for a closer look

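One value stood apart from the other plates of its group. Cacna2d2 was 241 CPM on VGAT E16 replicate 3, against 216, 220 and 216 CPM on the other VGAT E16 plates, a gap of 0.829 of the range of the group. Among 30 groups of values tested, 1 was marked in this way, and chance marks about 1 in 20.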

How the results depend on the processing

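Cacna2d1 and Cacna2d3 kept their calls between the sorts, and Cacna2d3 and Cacna2d2 between Six3 and Pax5 cells, under every alternative run other than the second plate label, which was not run for Six3 and Pax5 cells. The members called by stage numbered 3 in DESeq2, 5 without a filter on low counts, and 0 with spliced counts, where 6.92%, 5.20% and 3.75% of all genes were called. They numbered 0 with the second plate label, and with the stage from the second label and the sort from the first, where 0 genes and 1 gene were called. Between the sorts they numbered 5 in DESeq2, 5 without a filter on low counts, 6 with spliced counts, 0 with the second plate label and 6 on the plates with 1 stage in both labels, where 9.40%, 5.22%, 8.84%, 0% and 9.09% of all genes were called. Leaving out each VGAT plate gave 0 to 3 members by stage, where 0.529% to 6.24% of all genes were called. Between the sorts it gave 3 to 6 members, where 8.09% to 9.62% of all genes were called. For Six3 against Pax5 cells it gave 2 to 3, where 1.38% to 3.59% of all genes were called. Without VGAT P0 replicate 1, where 8.64% of all genes were called, Cacna1e, Cacna2d2 and Scn3b passed between the sorts as well. Leaving out each VGAT plate gave 8 to 10 partner genes between the sorts and 0 to 5 by stage, in fits with the all-gene shares just given. Without a VGAT+PITX3 plate further partner calls were lost, as described with the partner genes. Partner genes called by stage numbered 4 in DESeq2, 8 without a filter, 2 with spliced counts and 0 under both readings of the second label. The all-gene results by stage in these settings are those given above for the members. Between the sorts they numbered 6 with the replicate block, 0 with the second plate label and 7 with the stage from the second label, where 6.21%, 0% and 6.80% of all genes were called. Between Six3 and Pax5 cells 1 was called without cells over 2 times the plate median, beside 3.06% of all genes. The cause of these changes was not tested.

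With the second plate label in full, which puts the dopamine-marked plates among the VGAT plates, directions between the sorts turned, at log2 fold changes of -3.05 for Cacna2d1, -1.09 for Cacna2d3, 0.23 for Akap5, -0.22 for Unc79, -0.16 for Nedd4l, 0.14 for Cabp1, -0.49 for Fgf13, 0.24 for Stac, -0.21 for Rims1, 0.064 for Fgf11, -0.11 for Cntn1, -0.73 for Cacng3 and -0.29 for Fam155a, all at an adjusted p of 0.9996 in edgeR. With the stage from the second label and the sort from the first, Cacng5 was -0.37 by stage. With the replicate block, 908 genes were called between the sorts and 210 by stage, against 1306 and 624. Same-numbered VGAT plates shared only a number: their deviations correlated at 0.0331, 0.0251 and 0.0318 across genes. The block ended no member's call. Without the plate block, 148 genes were called between Six3 and Pax5 cells, against 284. Leaving out the VGAT+PITX3 E16 plate left 4.05% of genes called between the sorts, against 8.93%, and 131 to 371 were called between Six3 and Pax5 cells when 1 plate was left out. No interaction could be fitted without a VGAT+PITX3 plate. Over all genes, 76 to 833 were called by stage when 1 plate was left out, 1588 without a filter and 856 on the plates with 1 stage in both labels, of which 1 is a P0 plate.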
